A study of Cricetulus griseus with 6 samples.

Results

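Genes of the ATF4, CHOP and amino acid response were examined in CHO-T cells after *Xbp1* silencing. The list held 34 gene symbols, chosen by name as stress response factors, enzymes of amino acid synthesis and amino acid transporters, and 30 of them had a row among the 27873 rows of each expression file. *Cebpb*, *Cebpg*, *Gadd45a* and *Vldlr* had no row under these symbols. CHO-T cells are Chinese hamster ovary (CHO) cells that carry a retrovirus encoding mouse T-cadherin (*Cdh13*), so that both conditions express the transgene from a retroviral promoter. Of the 6 libraries, 3 came from cells that received a negative control siRNA and 3 from cells that received *Xbp1* siRNA, all harvested 48 h after transfection, and the mRNA libraries were stranded. The study describes its experiments in general as biologically independent, and its legend for the RNA-Seq panels calls the results shown representative of separate experiments. The labels do not name the culture of each library, so p-values measure the spread between these libraries, which may in part be technical.

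In the integrated stress response, kinases that sense ER stress, amino acid shortage, viral RNA or heme shortage phosphorylate the translation factor eIF2α. General translation then slows while the mRNA of the transcription factor ATF4 is translated more, and ATF4 raises transcription of *Ddit3*, which encodes CHOP, and of genes for amino acid synthesis and uptake. The PERK kinase feeds this response from the ER, side by side with the IRE1α branch that splices *Xbp1* mRNA. Several genes of the response, among them those of CHOP and GADD34, were first isolated from irradiated CHO cells. ATF4 activity is set largely by translation, so mRNA levels of *Atf4* do not report its protein.

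*Xbp1* was read first as a check of the labels. It had 26.0, 26.2 and 28.4 FPKM (fragments mapped to a gene, scaled to its length and to the size of the library) with control siRNA and 2.18, 2.11 and 1.39 FPKM with *Xbp1* siRNA, so that 7.05% of the control mean remained. Summed FPKM per library lay between 646651 and 666267 with control siRNA and between 593487 and 600986 with *Xbp1* siRNA, without overlap. Read totals are not in the files, but steps between low values gave depths of 94.0% to 116% relative to control replicate 1. Of 10 markers of ovarian somatic cells, 6 had a row, 2 were listed at 0 in all libraries, and their sum lay between 5.36 and 7.14 FPKM with control siRNA and between 5.95 and 8.56 FPKM with *Xbp1* siRNA. The 9 mesenchymal markers summed to between 2694 and 2916 FPKM with control siRNA and to between 1467 and 1540 FPKM with *Xbp1* siRNA, with 2 listed at 0 and, of 6 tested, 4 lower and 1 higher at an adjusted p under 0.05 (limma). The 4 epithelial markers with a row summed to between 1.83 and 2.16 FPKM with control siRNA and to between 4.59 and 5.79 FPKM with *Xbp1* siRNA, with 2 listed at 0 and the 2 tested both called higher, with log2 changes of 1.29 and 1.32. The 6 blood and endothelial markers, of which 4 were listed at 0, summed to between 5.23 and 6.42 FPKM and to between 6.99 and 8.84 FPKM, respectively, but the 2 that were tested had log2 changes of opposite sign, 0.46 and −1.02. The part of these marker changes in the results was not tested. In bulk RNA, fewer cells of a type and less RNA per cell cannot be told apart.

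The response genes were abundant in control cells. Control means of the 27 genes that passed a filter at a mean of 0.1 FPKM lay between 12.9 FPKM for *Gpt2* and 637 FPKM for *Atf4*, with a median of 111 FPKM against 10.7 FPKM over all 14361 genes tested. *Atf4* ranked 124 and *Nupr1* 148 by control level among these genes, and 14 of the 27 had a control mean of at least 100 FPKM. The 3 genes under the filter were *Cth*, *Cbs* and *Aldh1l2*. *Cth* and *Cbs* encode the enzymes that make cysteine from homocysteine by transsulfuration, and *Aldh1l2* encodes a mitochondrial folate enzyme. *Cth* was listed at 0 in all 6 libraries. *Cbs* had 0, 0 and 2 reads with control siRNA and 2, 1 and 2 reads with *Xbp1* siRNA, and *Aldh1l2* had 3, 0 and 0 reads against 0, 0 and 2, so that a difference was not detectable at this depth. These read numbers take the step between low values as 1 read and cover counting error only.

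After *Xbp1* silencing more of these genes were lower than higher, as among abundant genes in general. Each change was smaller than 2-fold. The test was limma on log2(FPKM + 0.1), with Benjamini-Hochberg adjustment over all genes tested, and log2 changes are given on that scale as *Xbp1* siRNA minus control siRNA. At an adjusted p under 0.05, 14 of the 27 genes were lower, 6 were higher and 7 did not pass. Over all genes tested, 20.2% were lower and 20.2% higher by the same limit. Among genes with a mean of at least 100 FPKM, 44.1% were lower and 19.0% higher. The study's limits also ask for a log2 change of 1 or more in either direction. By these, limma called 0 of the 27 genes, against 2.69% of all genes called higher and 2.50% called lower. At an unadjusted p under 0.05, 6 of the 27 genes were higher and 15 lower, against 24.6% and 24.3% of all genes. The values of the 2 conditions were fully separated for 16 genes that were lower and 6 that were higher, against 25.8% and 26.1% of all genes. The median log2 change was −0.25, with a range from −0.75 to 0.78, against a median of 0.01 over all genes tested.

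Among abundant genes, more were lower than higher in these files. Of 7458 genes with a mean of at least 10 FPKM, which include the 27, 30.2% were lower and 24.1% higher at an adjusted p under 0.05 (limma). Of 1063 genes with a mean of at least 100 FPKM, 44.1% were lower and 19.0% higher at an adjusted p under 0.05 (limma), and their median log2 change was −0.09. Of the 14 response genes at this level, 8 were lower and 1 was higher, with a median of −0.27. Quantile normalization, which gives all libraries the same distribution of values, moved the median of all genes at this level to 0.04. The median of the full set of 27 response genes moved from −0.25 to −0.06, with 12 of the 27 lower and 8 higher at an adjusted p under 0.05 (limma).

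**Figure D1:**
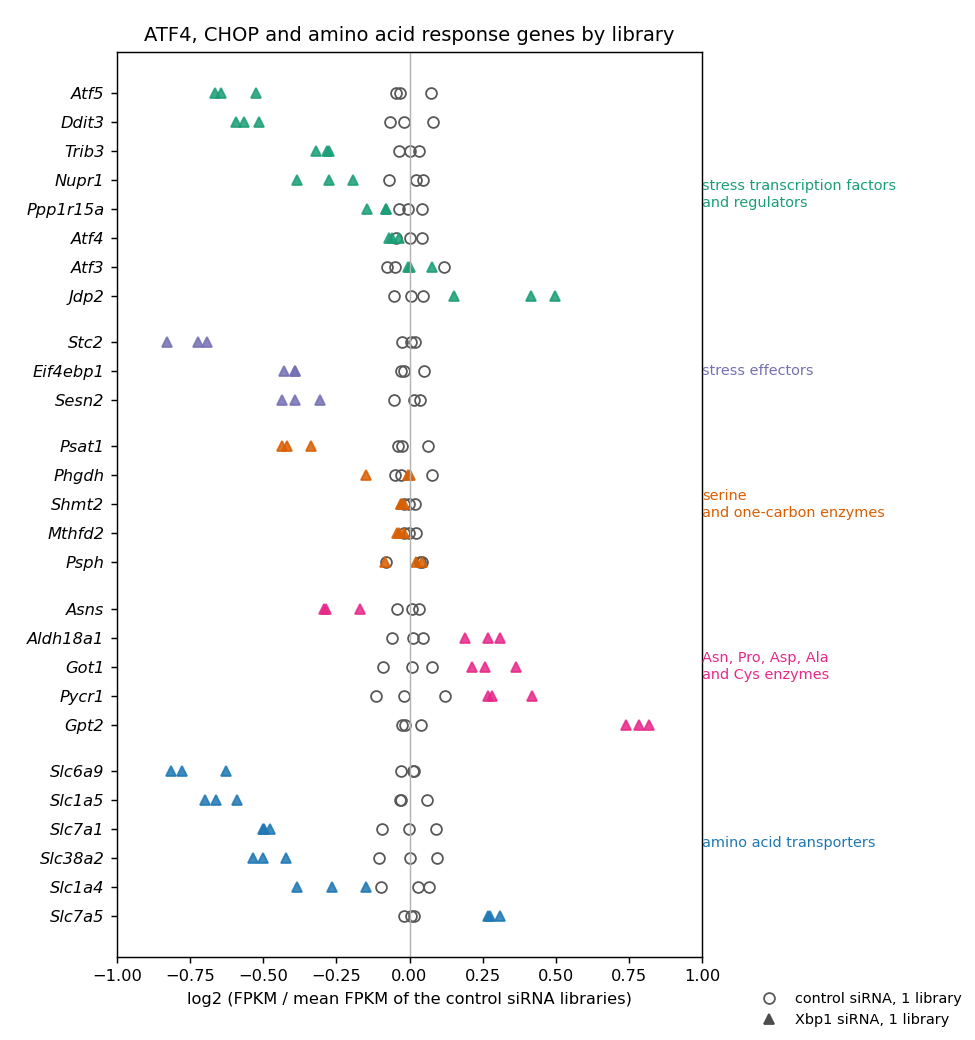
Each row is 1 of the 27 genes tested, grouped by role, and each symbol is 1 library; the horizontal axis is the log2 ratio of the FPKM to the mean of the control siRNA libraries, with open circles for control siRNA and triangles for *Xbp1* siRNA. The triangles lie left of the circles for 16 genes and right of them for 6, and *Gpt2* lies farthest to the right with a log2 change of 0.78.

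Among the transcription factors and their regulators, the mRNA of CHOP fell while that of *Atf4* stayed within a narrow interval around the control. *Atf4* had 656, 616 and 637 FPKM with control siRNA and 620, 606 and 610 FPKM with *Xbp1* siRNA. The 2 conditions overlapped, and the log2 change was −0.06 (95% interval −0.13 to 0.02, limma adjusted p = 0.205), though after quantile normalization it was 0.23 (limma adjusted p = 0.000653). *Ddit3* had 150, 155 and 166 FPKM with control siRNA and 104, 106 and 110 FPKM with *Xbp1* siRNA. All 3 libraries with *Xbp1* siRNA were lower than all 3 with control siRNA, and the log2 change was −0.55 (SE 0.0446, limma adjusted p = 7.55e-05). The ratio of *Ddit3* to *Atf4* within a library, which scaling of the whole library does not change, was 0.247 ± 0.0162 (SD, n = 3) in control cells and 0.175 ± 0.00646 (SD, n = 3) after silencing. An exact two-sided permutation test of this ratio gave p = 0.10, the smallest that 3 libraries against 3 allow. The ratio is made of the same values as the log2 changes above, so it is not independent evidence.

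*Atf5*, a bZIP factor related to ATF4 whose translation is also raised by eIF2α phosphorylation, had 227, 209 and 211 FPKM with control siRNA and 138, 136 and 150 FPKM with *Xbp1* siRNA. Its log2 change was −0.61 (SE 0.0507, limma adjusted p = 8.99e-05), and it was not separable from that of *Ddit3*, since without control replicate 1 the values were −0.57 for *Atf5* and −0.59 for *Ddit3*. *Trib3*, a pseudokinase induced by ATF4 and CHOP, had 246, 235 and 241 FPKM in control cells and 199, 193 and 198 FPKM after silencing. The conditions did not overlap, and the log2 change was −0.29 (limma adjusted p = 0.000330), or −0.15 after quantile normalization (limma adjusted p = 0.00470). *Nupr1*, which encodes a small stress-induced nuclear protein, had 525, 492 and 533 FPKM and 427, 396 and 452 FPKM, respectively. It was lower by −0.28 on the log2 scale (limma adjusted p = 0.00478), but after quantile normalization the value was −0.06 (limma adjusted p = 0.502).

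*Atf3*, another bZIP factor of the response, had 15.9, 16.2 and 18.2 FPKM with control siRNA and 16.8, 16.7 and 17.7 FPKM with *Xbp1* siRNA. The libraries overlapped, with a log2 change of 0.03 (95% interval −0.13 to 0.19, limma adjusted p = 0.790), and without control replicate 1 the value was −0.01. *Ppp1r15a* encodes GADD34, which brings protein phosphatase 1 to eIF2α and so ends the response. It had 147, 142 and 139 FPKM against 135, 129 and 135 FPKM, which do not overlap, and its log2 change of −0.10 did not pass (limma adjusted p = 0.0565) and was −0.01 after quantile normalization. *Jdp2*, a bZIP factor that represses AP-1 and ATF sites, was the only gene of this group that rose, with 34.9, 35.9 and 33.5 FPKM against 49.1, 46.4 and 38.6 FPKM. Its log2 change was 0.36 (limma adjusted p = 0.0146). *Xbp1* siRNA replicate 3 lay closest to the control libraries, and without *Xbp1* siRNA replicate 2 the call was lost (log2 change 0.32, limma adjusted p = 0.0512).

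**Figure D2:**
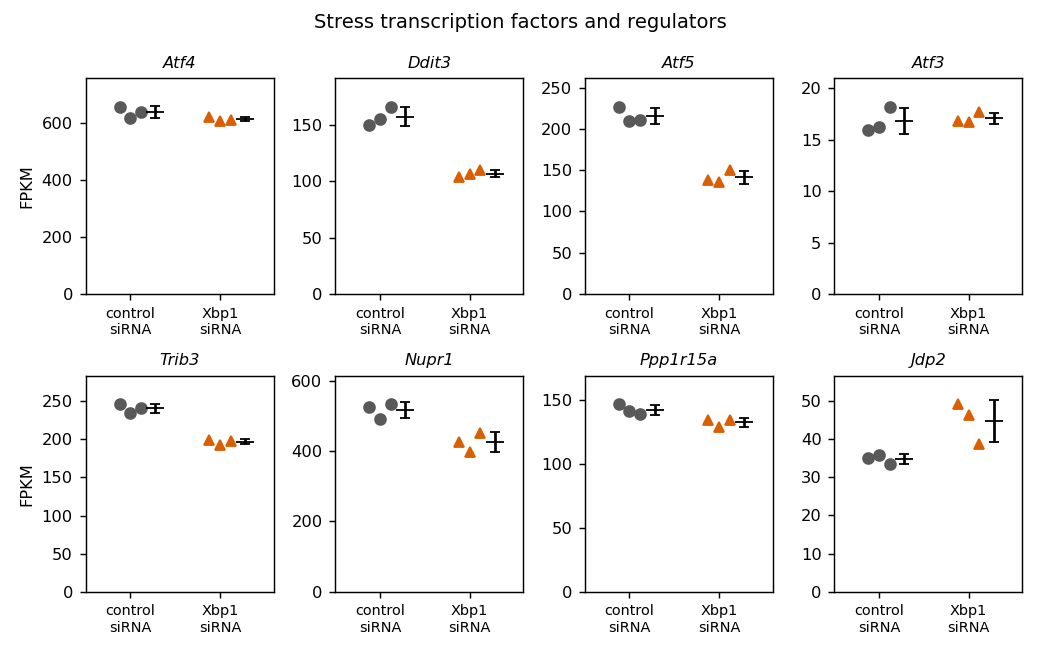
FPKM by library for the 8 stress transcription factors and regulators tested, 1 panel per gene with an axis from 0; circles are control siRNA libraries, triangles *Xbp1* siRNA libraries, and the bars beside them show the mean ± SD (n = 3). *Ddit3*, *Atf5*, *Trib3* and *Nupr1* are lower after silencing, *Jdp2* is higher, and the libraries of *Atf4* and *Atf3* overlap.

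The 3 effectors of the response that were tested were each lower, where 20.2% of all genes and 30.2% of those at 10 FPKM or more were lower at an adjusted p under 0.05 (limma). *Stc2* encodes a secreted glycoprotein, stanniocalcin 2. It had 63.5, 62.9 and 61.6 FPKM with control siRNA and 35.3, 38.0 and 38.8 FPKM with *Xbp1* siRNA, a log2 change of −0.75 (SE 0.0461, limma adjusted p = 2.35e-05). *Stc2* and the glycine carrier *Slc6a9*, with a log2 change of −0.74 (SE 0.0561), had the lowest values among the 27 genes and differed by less than their errors. Without *Xbp1* siRNA replicate 1 their order turned, with −0.70 for *Stc2* and −0.79 for *Slc6a9*. *Eif4ebp1*, whose product 4E-BP1 blocks cap-dependent translation when mTORC1 is inactive, had 454, 430 and 433 FPKM against 335, 335 and 326 FPKM, a log2 change of −0.40 (limma adjusted p = 7.32e-05). *Sesn2*, which encodes the leucine sensor Sestrin 2, had 37.0, 35.3 and 37.6 FPKM against 29.6, 27.9 and 27.1 FPKM, a log2 change of −0.38 (limma adjusted p = 0.000827). For each of these genes the 2 conditions did not overlap.

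*Gadd45a*, a growth arrest gene, had no row under its symbol, but the row LOC103159266 carries the gene ID that the RefSeq gene table (assembly CriGri-PICRH-1.0) names *Gadd45a*. This row had 509, 489 and 501 FPKM with control siRNA and 232, 237 and 245 FPKM with *Xbp1* siRNA. The level after silencing was 47.6% of the control, with a log2 change of −1.07 (SE 0.0326, limma adjusted p = 1.62e-06), which passes the limits of the study, and of −0.88 after quantile normalization. The row is not counted among the 27 genes.

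In serine synthesis, the middle of the 3 enzymes fell and the differences at either end did not pass the test. *Phgdh* encodes the first enzyme of the pathway and had 202, 185 and 188 FPKM with control siRNA and 192, 173 and 191 FPKM with *Xbp1* siRNA. Its log2 change was −0.05 (95% interval −0.17 to 0.07, limma adjusted p = 0.484). *Psat1*, which encodes the aminotransferase that follows it, had 210, 223 and 208 FPKM against 158, 169 and 160 FPKM. The 2 conditions did not overlap, with a log2 change of −0.40 (SE 0.0402, limma adjusted p = 0.000234). *Psph*, which encodes the phosphatase of the last step, had 93.3, 92.9 and 85.8 FPKM against 85.5, 92.0 and 93.4 FPKM, a log2 change of −0.01 (95% interval −0.12 to 0.11, limma adjusted p = 0.941). The ratio of *Psat1* to *Phgdh* within a library was 1.04, 1.20 and 1.11 in control cells and 0.826, 0.975 and 0.838 after silencing. An exact two-sided permutation test gave p = 0.10, the smallest that 3 libraries against 3 allow. The ratio is made of the values of each gene and is not further evidence.

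The mitochondrial enzymes *Shmt2* and *Mthfd2*, which pass the carbon of serine to folate, had log2 changes of −0.03 each, with 95% intervals of −0.09 to 0.04 and −0.10 to 0.03. After quantile normalization the values of *Phgdh*, *Psph*, *Shmt2* and *Mthfd2* lay above 0, and that of *Shmt2* passed the test at 0.13 (limma adjusted p = 0.00342). Their replicates were tight, with 265, 261 and 258 FPKM against 258, 256 and 256 FPKM for *Shmt2* and 176, 174 and 179 FPKM against 172, 174 and 171 FPKM for *Mthfd2*. Of the 5 enzymes of this group that were tested 1 was lower and 4 did not pass, a share close to the 20.2% of all genes that were lower.

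Of the 5 enzymes of asparagine, proline, aspartate and alanine synthesis that were tested, *Aldh18a1*, *Pycr1*, *Got1* and *Gpt2* rose and the asparagine synthetase gene fell. Of 14 other proline, glutamate, aspartate and branched-chain enzymes, 1 was higher and 5 lower at an adjusted p under 0.05 (limma), with a median log2 change of −0.03 (2 higher when limma ran without the trend). Among all genes with a mean of at least 10 FPKM, 24.1% were higher and 30.2% lower. *Asns*, which encodes this enzyme and is a standard readout of ATF4, had 114, 112 and 108 FPKM with control siRNA and 91.4, 90.9 and 99.0 FPKM with *Xbp1* siRNA. All libraries with *Xbp1* siRNA were below the control libraries, and the log2 change was −0.25 (SE 0.0448, limma adjusted p = 0.00361). *Gpt2* encodes the mitochondrial alanine aminotransferase and had 13.3, 12.7 and 12.8 FPKM against 22.8, 22.3 and 21.6 FPKM. Its level reached 172% of the control, with a log2 change of 0.78 (SE 0.0515, limma adjusted p = 3.20e-05), the largest increase among the 27 genes. The ratio of *Gpt2* to *Asns* within a library was 0.116 ± 0.00297 (SD, n = 3) in control cells and 0.238 ± 0.0171 (SD, n = 3) after silencing. This ratio sets a gene that rose over a gene that fell, so its increase follows from the values of each gene.

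*Got1*, the cytosolic aspartate aminotransferase, had 25.1, 26.3 and 23.4 FPKM with control siRNA and 32.1, 29.8 and 28.9 FPKM with *Xbp1* siRNA, a log2 change of 0.28 (limma adjusted p = 0.00959). *Aldh18a1* and *Pycr1* encode the first and the last enzyme of the route from glutamate to proline, an amino acid that CHO cells must take from the medium. *Aldh18a1* had 62.0, 59.1 and 63.5 FPKM against 76.2, 70.2 and 74.2 FPKM, a log2 change of 0.26 (limma adjusted p = 0.00343). *Pycr1* had 61.9, 56.2 and 52.6 FPKM against 76.0, 68.5 and 69.2 FPKM, a log2 change of 0.33 (limma adjusted p = 0.00758). Both rose without overlap of the conditions. *Oat*, whose product makes proline precursor from ornithine, was listed at 0 in all 6 libraries.

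Of the 6 amino acid transporters, 5 fell and 1 rose, where 30.2% of all genes with a mean of at least 10 FPKM were lower and 24.1% higher at an adjusted p under 0.05 (limma). Among 21 other amino acid transporters 4 were lower and 12 higher, or 7 higher without *Xbp1* siRNA replicate 1 or 3. *Slc7a5* (LAT1), which exchanges large neutral amino acids such as leucine across the plasma membrane, had 370, 364 and 373 FPKM with control siRNA and 457, 447 and 444 FPKM with *Xbp1* siRNA. The conditions did not overlap, and the log2 change was 0.28 (SE 0.0277, limma adjusted p = 0.000198), or 0.49 after quantile normalization. Its partner chain *Slc3a2* had 525, 501 and 491 FPKM against 568, 540 and 577 FPKM, a log2 change of 0.15 (limma adjusted p = 0.0171), which did not pass when 1 of 4 libraries was left out, control replicates 2 and 3 and *Xbp1* siRNA replicates 1 and 3 (limma adjusted p between 0.0536 and 0.0631), or without the trend (limma adjusted p = 0.0739). After quantile normalization the log2 change of *Slc3a2* was 0.42.

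*Slc1a5* (ASCT2), a transporter of glutamine and other neutral amino acids, had 254, 239 and 238 FPKM with control siRNA and 162, 154 and 150 FPKM with *Xbp1* siRNA. It fell to 63.8% of the control, with a log2 change of −0.65 (SE 0.0416, limma adjusted p = 2.72e-05). *Slc7a5* thus moved up and *Slc1a5* down in the same libraries. Their ratio was 1.46, 1.52 and 1.57 in control cells and 2.82, 2.90 and 2.96 after silencing, which is 90.7% higher by the means. That the ratio does not overlap follows from the values of each gene and is not further evidence.

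*Slc6a9* (GLYT1), which takes up glycine, had 48.8, 48.6 and 47.3 FPKM with control siRNA and 31.2, 28.1 and 27.4 FPKM with *Xbp1* siRNA, a log2 change of −0.74 (SE 0.0561, limma adjusted p = 5.86e-05). *Slc7a1* (CAT1), the carrier of arginine and lysine, had 51.3, 54.7 and 58.4 FPKM against 38.7, 39.4 and 38.8 FPKM, a log2 change of −0.49 (limma adjusted p = 0.000306). *Slc38a2* (SNAT2), a sodium-coupled carrier induced by amino acid shortage, had 65.1, 70.1 and 74.8 FPKM against 48.3, 52.2 and 49.5 FPKM, a log2 change of −0.48 (limma adjusted p = 0.000547). The libraries of these 3 genes did not overlap between conditions.

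*Slc1a4* (ASCT1), a carrier of serine and alanine, went from 62.7 ± 3.64 to 52.2 ± 4.27 FPKM (SD, n = 3 each), a log2 change of −0.26 (limma adjusted p = 0.0189). Its lowest control library had 58.6 FPKM and its highest library with *Xbp1* siRNA 56.5 FPKM, the narrowest gap of the 5 decreases. The call was lost when control replicate 2 or 3 was left out, or *Xbp1* siRNA replicate 1 or 2 (limma adjusted p between 0.0513 and 0.0623), after quantile normalization (limma adjusted p = 0.0653) and without the trend (limma adjusted p = 0.0579). Summed over the 6 genes, FPKM was 848 ± 8.64 (SD, n = 3) in control cells and 775 ± 9.97 (SD, n = 3) after silencing, with *Slc7a5* the largest share.

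**Figure D3:**
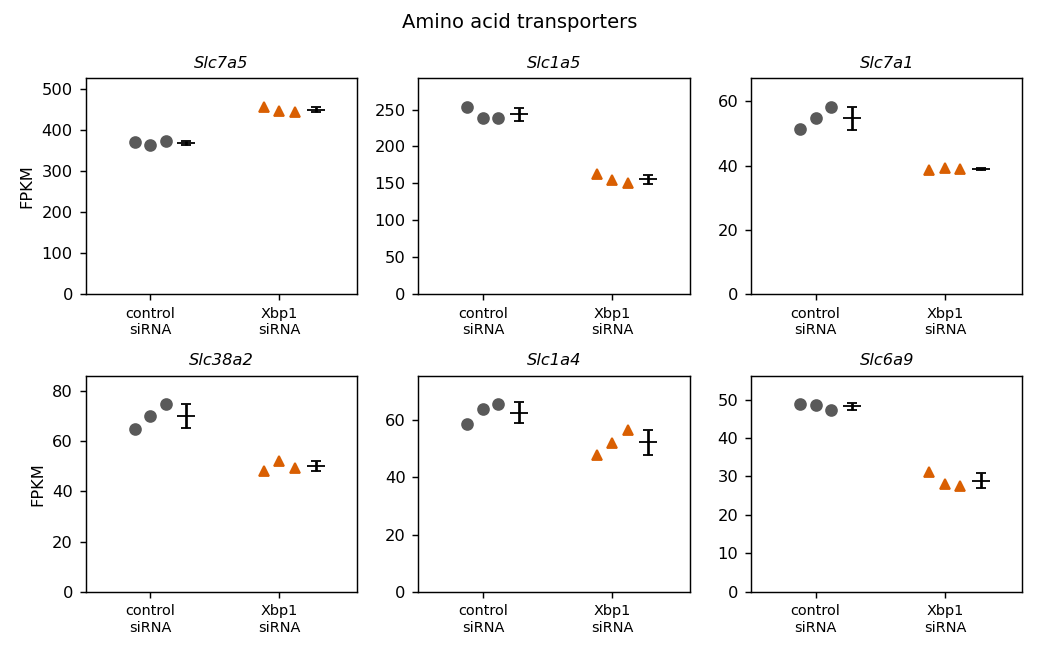
FPKM by library for the 6 amino acid transporters, 1 panel per gene with an axis from 0; circles are control siRNA libraries, triangles *Xbp1* siRNA libraries, and the bars beside them show the mean ± SD (n = 3). *Slc7a5* is higher after silencing and the other genes are lower, with no overlap between the conditions in any panel.

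**Figure D4:**
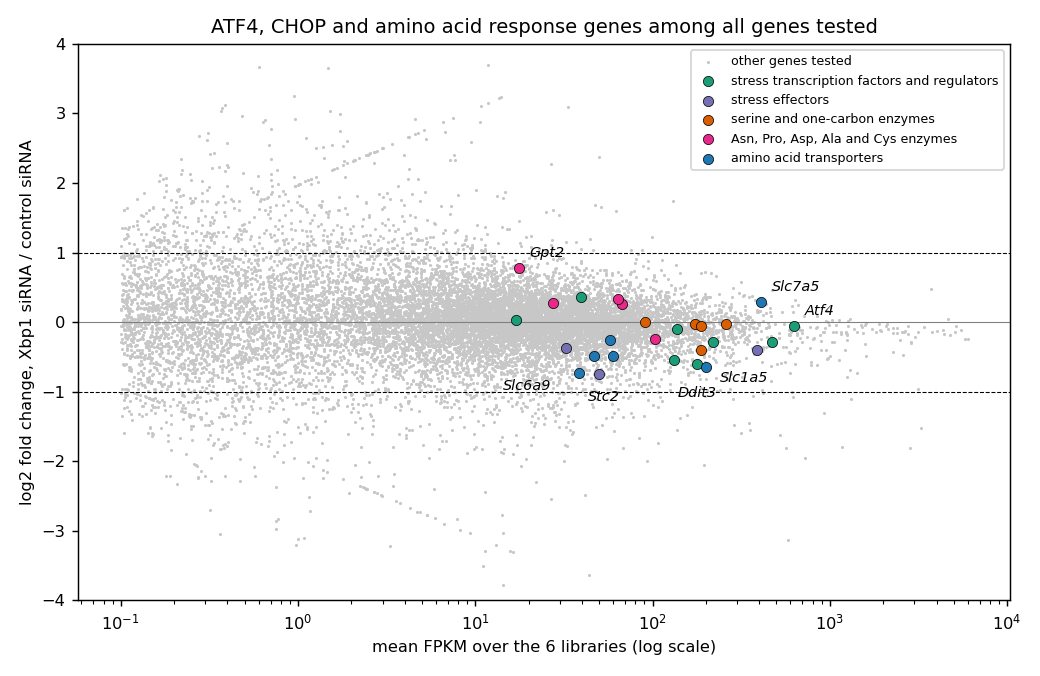
Log2 fold change after *Xbp1* silencing against the mean FPKM over the 6 libraries, on a log scale, for the 14361 genes tested (grey) and the 27 response genes, coloured by role; dashed lines mark a log2 change of 1 in either direction, and 15 genes lie outside the plotted range. The response genes lie at the abundant side of the plot and between the dashed lines.

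Other genes of the pathway were read from lists made by their role. Of 20 genes for eIF2α phosphorylation and the eIF2B complex, 4 were higher and 8 lower at an adjusted p under 0.05, with a median log2 change of −0.05 (2 higher when limma ran without the trend). Over all genes tested 20.2% were higher and 20.2% lower, so the share that was higher is that of genes in general. *Ppp1r15b*, which encodes the constitutive partner of protein phosphatase 1 at eIF2α, had 24.4, 24.4 and 24.9 FPKM with control siRNA and 12.2, 10.7 and 12.5 FPKM with *Xbp1* siRNA, a log2 change of −1.06 (SE 0.0700, limma adjusted p = 3.17e-05), or −0.99 without *Xbp1* siRNA replicate 2. This is a larger decrease than that of its inducible relative *Ppp1r15a*, although the difference between them was not tested. The kinases were also read, of which *Eif2ak1*, *Eif2ak3* and *Eif2ak4* were named for their role after their values had been seen, as were *Slc3a2*, *Oat* and *Chac1*. *Eif2ak3* (PERK) had 5.79, 6.40 and 5.43 FPKM against 8.72, 7.63 and 8.94 FPKM, a log2 change of 0.51 (limma adjusted p = 0.00512). *Eif2ak2* (PKR) had a log2 change of 1.07 (limma adjusted p = 0.0252), which did not pass without *Xbp1* siRNA replicate 2 or 3 (limma adjusted p = 0.0701 and 0.0852), with the replicate number as a block (limma adjusted p = 0.0520) or without the trend (limma adjusted p = 0.0532). Its log2 change was under 1 with a pseudocount of 1 (0.70), after quantile normalization (0.96) and without control replicate 3 (0.74) or *Xbp1* siRNA replicate 3 (0.95). *Eif2ak4* (GCN2) had 0.15 (limma adjusted p = 0.109) and *Eif2ak1* (HRI) −0.05 (limma adjusted p = 0.468), which was 0.00 after quantile normalization.

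Of 23 other reported targets of ATF4 or CHOP, 13 were lower and 4 higher at an adjusted p under 0.05, with a median log2 change of −0.30, against 20.2% of all genes each way and 30.2% lower and 24.1% higher of those at 10 FPKM or more. The number that was higher dropped to 1 without control replicate 2 or *Xbp1* siRNA replicate 1, to 2 without control replicate 3 or *Xbp1* siRNA replicate 3, and to 1 when limma ran without the trend. By the limits of the study *Cdkn1a* with −1.18, *Slc7a11* with −1.06, *Map1lc3b* with −1.01 and *Sqstm1* with −1.01 were called lower, against 2.50% of all genes. All but *Cdkn1a* lie close to the limit, with *Map1lc3b* at −0.93 and *Sqstm1* at −0.95 after quantile normalization and *Slc7a11* at −0.97 without control replicate 3. *Cdkn1a* encodes the cell cycle inhibitor p21 and *Slc7a11* the cystine carrier xCT, while *Map1lc3b* and *Sqstm1* encode autophagy proteins, and these genes also answer to factors other than ATF4. *Chac1*, a glutathione-degrading enzyme induced by ATF4 and CHOP, had 49.4, 45.3 and 44.8 FPKM with control siRNA and 35.2, 37.4 and 40.3 FPKM with *Xbp1* siRNA, a log2 change of −0.30 (limma adjusted p = 0.00712). Of 20 cytosolic aminoacyl-tRNA synthetases, 12 were lower and 3 higher, with a median of −0.14, but after quantile normalization 6 were lower and 5 higher. These genes summed to 2438 to 2469 FPKM in control cells, but not all reach 100 FPKM, such as *Cars* with a mean of 42.1 FPKM. Among all genes at 10 FPKM or more 30.2% were lower and 24.1% higher, and at 100 FPKM or more 44.1% and 19.0%.

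Of 21 other amino acid transporters, 12 were higher and 4 lower at an adjusted p under 0.05 (limma), with a median log2 change of 0.29, against 20.2% of all genes each way. The median of the 6 transporters above was −0.49, and the difference between the lists was not tested. The number that was higher dropped to 7 without *Xbp1* siRNA replicate 1 or 3. *Slc43a2* (LAT4), a carrier of branched-chain amino acids, had 2.26, 1.90 and 1.93 FPKM with control siRNA and 4.37, 5.80 and 5.82 FPKM with *Xbp1* siRNA, a log2 change of 1.34 (limma adjusted p = 0.000385). *Slc6a17* had 13, 9 and 3 reads against 35, 19 and 32 reads, and its call was lost when any 1 of the same 4 libraries as for *Slc3a2* was left out (limma adjusted p of 0.0534 or more) and its log2 change was 0.49 with a pseudocount of 1. *Slc7a11*, which is on this list too, was called lower.

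Of 19 other serine, glycine and folate enzymes, 5 were higher and 6 lower, with 3 higher without *Xbp1* siRNA replicate 3. *Sds*, which encodes a serine-degrading enzyme, was called higher on 0, 1 and 1 reads in control cells and 3, 7 and 7 reads after silencing, and not without *Xbp1* siRNA replicate 2 or 3 (limma adjusted p = 0.0549 and 0.0524). Of 23 paralogs of the response genes and other ATF or C/EBP factors, 6 were higher and 5 lower. Over all genes tested, 20.2% were higher and 20.2% lower, so that neither count stands out as a result about its list. Without control replicate 2 or *Xbp1* siRNA replicate 2 the counts of the paralog list became 3 higher and 3 lower. Without *Xbp1* siRNA replicate 1 the number higher was 3, and without control replicate 3 or *Xbp1* siRNA replicate 3 the number lower was 3. *Atf6*, the gene of the third ER stress sensor, had 91.3, 92.7 and 92.0 FPKM with control siRNA and 41.2, 44.6 and 44.7 FPKM with *Xbp1* siRNA, a log2 change of −1.08 (SE 0.0423, limma adjusted p = 3.87e-06).

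**Figure D5:**
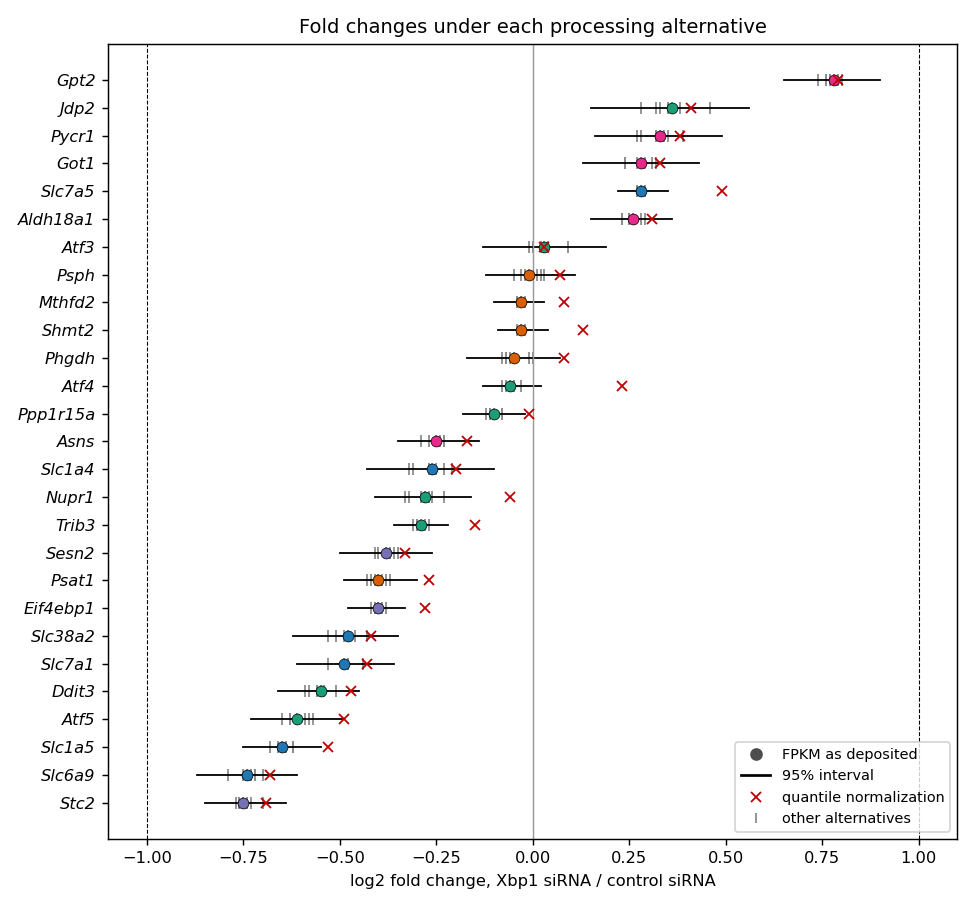
Log2 fold change of each of the 27 genes from the deposited FPKM (circles, coloured by role as in the other plots, with the 95% interval as a line), after quantile normalization (crosses) and under the other alternatives (ticks); dashed lines mark a log2 change of 1 in either direction. The crosses of abundant genes lie to the right of the circles, that of *Atf4* at 0.23 against −0.06, while the 6 genes above control and the 12 that stayed lower at an adjusted p under 0.05 keep their side of 0.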

How the data were processed

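RNA of 6 CHO-T libraries, 3 with control siRNA and 3 with *Xbp1* siRNA, was sequenced on stranded mRNA libraries. The authors deposited FPKM values, 1 library per file, and the submitters' processing notes name HISAT2 2.1.0 and Cuffdiff 2.2.1; the genome build and annotation are not given in the sources used here, so no coordinates are printed. FPKM is scaled to transcript length and to the library, so levels can be compared between genes, but a fall of abundant genes shifts with the scaling chosen. Reads that near-identical gene copies may share were not examined. A count model, as in the study's methods, needs counts and was left out.

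Differences between conditions came from limma 3.58.1 (R 4.3.3, lmFit, eBayes with trend), run on log2(FPKM + 0.1) over the 14361 genes with a mean of at least 0.1 FPKM, with Benjamini-Hochberg adjustment. The pseudocount understates changes of weak genes. Calls used an adjusted p of 0.05, with and without an absolute log2 fold change of 1. The procedure was tested on simulated data. Depth is unknown beyond the relative values from low FPKM steps (genes up to 0.8 FPKM), since the files hold no read totals. Read numbers were taken with a tolerance of 0.03 reads that widened with the read number, so large read numbers were held only loosely. Python 3.11.15 with scipy 1.17.1 made the permutation tests.

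Groups came from the sample titles. The genes and lists were chosen with earlier results of these data known. Values by library are given for *Atf4*, *Ddit3*, *Atf3*, *Trib3*, *Asns* and each gene past an adjusted p of 0.05, except *Slc1a4*, given by mean, SD and the facing extremes; other list genes are named where both limits were passed, with the exceptions stated. *Ppp1r15a*, *Phgdh*, *Psph*, *Shmt2* and *Mthfd2* are given by library as well, to account for each gene tested. All 30 symbols with a row were found in the RefSeq gene table, used for names only. Alternatives were 2 pseudocounts, 2 filters, 2 scalings, eBayes without trend, a replicate block and leaving out each library. A planned search of promoters was not run, since no sequences were used here.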

Additional observations from a re-analysis of the deposited data

How the results depend on the processing

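Under 14 alternatives, 361 of 378 values for the 27 genes kept their direction and their side of an adjusted p of 0.05, 8 lost the call and 9 turned direction, and 18 of the genes kept both under each alternative. All 27 genes had a control mean of at least 12.9 FPKM, so the pseudocounts and filters could move their values little. Agreement under those alternatives carries little weight. The turned values belong to genes that did not pass at first: with quantile normalization *Atf4* 0.23, *Phgdh* 0.08, *Psph* 0.07, *Shmt2* 0.13 and *Mthfd2* 0.08, and *Eif2ak1* of the other lists 0.00; *Atf3* −0.01 without control replicate 1 (range −0.01 to 0.09 when leaving out 1 library); and *Psph* 0.02, 0.01 and 0.03 without control replicate 1, control replicate 2 or *Xbp1* siRNA replicate 1 (range −0.05 to 0.03). The 8 lost calls were those of *Slc1a4* (6), *Jdp2* and *Nupr1*. The median log2 fold change of the genes was −0.06 after quantile normalization, and −0.12 with no filter, where *Cbs* and *Aldh1l2* enter on few reads. Leaving out 1 library kept it between −0.29 and −0.21.

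Over all genes, 114 were called higher and 205 lower with a pseudocount of 1, and 242 higher with a filter at a mean of 1 FPKM, against 386 and 359. With the replicate number as a block, 6 of the genes were higher and 14 lower, as without it. Same-numbered libraries were not treated as paired: the correlation of their deviations from the mean of each condition, computed across genes, was −0.029, −0.027 and −0.012. With 3 libraries a condition and no read totals, changes of weak genes such as *Cbs* are not resolved.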
